A study of Mus musculus with 5 samples.

Results

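Genes for glucose uptake, glycolysis and the switch that sends pyruvate to lactate or to the mitochondrion were examined in mouse brown adipose tissue (BAT), the fat depot that makes heat. The 10 genes were chosen by name, with earlier results of these data known: Slc2a1, Slc2a4, Hk1, Hk2, Pfkl, Pkm, Ldha, Ldhb, Pdk2 and Pdk4, of 52022 genes in the tables. All 10 passed the filter on low counts (at least 10 counts in at least 2 mice), as did 16450 genes in all. RNA of 5 mice was sequenced, 1 library a mouse. The 3 ATF4 BKO mice carried floxed Atf4 alleles (Atf4 fl/fl) and a Cre recombinase driven by the Ucp1 promoter, Tg(Ucp1-cre)1Evdr, which deletes Atf4 in thermogenic adipocytes and leaves it in the other cells of the tissue. The 2 WT mice were littermates with the same floxed alleles and no Cre. All were on a C57Bl/6J background, were 10 to 12 weeks old and described as male, ate freely, and were acclimated to 30 °C and then kept for 3 days at 4 °C. There was no group at 30 °C, so the values describe cold-exposed BAT and not the response to cold.

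Brown adipocytes burn fatty acids and glucose to make heat, and cold is known to raise their glucose uptake. Glucose enters through the transporters GLUT1 (Slc2a1) and GLUT4 (Slc2a4), of which GLUT4 moves to the cell surface in response to insulin, and is trapped as glucose 6-phosphate by hexokinases. Phosphofructokinase and pyruvate kinase catalyse committed steps of glycolysis. Pyruvate is then reduced to lactate by lactate dehydrogenase or enters the mitochondrion, where pyruvate dehydrogenase makes acetyl-CoA unless pyruvate dehydrogenase kinases (Pdk2, Pdk4) switch it off by phosphorylation. ATF4 is a transcription factor of the integrated stress response, best known for driving genes of amino acid synthesis and transport.

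The labels were checked against the data before the results. Atf4 itself had 22.1, 40.5 and 16.4 TPM in the ATF4 BKO mice and 227 and 188 TPM in the WT mice. TPM is transcript abundance per length, scaled to the same total in each library. The groups lay far apart, with a log2 fold change of -2.82 ± 0.34 (SE) for ATF4 BKO against WT (edgeR's quasi-likelihood test, adjusted p = 0.671; DESeq2, adjusted p = 9.72e-12). Of 10 ATF4 target controls tested, counting Atf4, 9 were below either WT mouse in all 3 ATF4 BKO mice (10.6% of all genes) and DESeq2 called 8 (0.736% of all genes), among them Asns (-1.44 ± 0.25 (SE)), Mthfd2 (-3.33 ± 0.45 (SE)) and Fgf21 (-3.57 ± 0.57 (SE)). ATF4 BKO replicate 1 had 4598 counts of Xist, the RNA of the inactive X chromosome, against at most 7 in the other mice. It had 34 counts of 4 Y-linked genes, against at least 3284 in the others, so its RNA went against the label male. WT replicate 2 held far more skeletal muscle RNA than the rest, with a sum over 22 markers of 75.2, 73.3 and 75.9 TPM in the ATF4 BKO mice and 159.5 and 2422 TPM in the WT mice. For these reasons, the 10 genes and the pathway counts are also given with single mice left out. Transcripts of mitochondrial genes took 21.96%, 18.50% and 19.96% in the ATF4 BKO mice and 15.57% and 15.12% in the WT mice, as a share of estimated counts, so the genotypes did not overlap, and the part of this difference in the CPM and TPM values was not tested. The deposited file names also start with 1 of 2 prefixes, for which no source used here gives a meaning, shared by ATF4 BKO replicates 1 and 2 with WT replicate 1 and by ATF4 BKO replicate 3 with WT replicate 2.

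Pyruvate kinase is shown here by sequence because its M1 and M2 isoforms differ in which of 2 mutually exclusive exons they include. The Pkm gene (ENSMUSG00000032294.17, chr9:59656368-59679375, plus strand, GRCm38) includes either exon 9, giving the M1 isoform, or exon 10, giving the M2 isoform, and each is 167 bases long in GENCODE M21. The exons are identical at 103 aligned positions and differ at 64 (61.7% identity), and capitals mark the bases that differ. Exon 9 lies at chr9:59675029-59675195 and exon 10 at chr9:59675568-59675734, both on the plus strand.
Exon 9 (M1): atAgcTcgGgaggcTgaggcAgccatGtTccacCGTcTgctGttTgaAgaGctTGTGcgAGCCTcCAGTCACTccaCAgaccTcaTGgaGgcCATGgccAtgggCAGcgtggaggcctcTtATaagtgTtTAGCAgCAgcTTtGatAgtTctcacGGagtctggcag
Exon 10 (M2): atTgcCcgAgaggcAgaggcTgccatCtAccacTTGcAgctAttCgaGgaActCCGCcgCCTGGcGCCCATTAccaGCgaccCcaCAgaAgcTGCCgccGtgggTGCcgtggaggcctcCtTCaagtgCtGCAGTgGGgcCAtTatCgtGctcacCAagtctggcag
Of 11 Pkm transcripts in the tables, 1 holds exon 9 (Pkm-202) and 1 holds exon 10 (Pkm-201), and the other 9 hold neither. Pkm-201 (2432 bases) and Pkm-202 (2041 bases) also differ in annotated length outside these exons, so reads at their ends can bear on the split between M1 and M2 as well.

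Levels of the 10 genes spanned more than 2 orders of magnitude within the tissue. By mean TPM over the 5 mice the order was Ldha (1914), Pkm (1445), Ldhb (889), Pdk4 (732), Pfkl (337), Pdk2 (246), Slc2a4 (232), Hk2 (162), Hk1 (26.4) and Slc2a1 (11.2). Neighbours were in this order in 5 of 5 mice, except Ldhb and Pdk4 (3 of 5) and Pdk2 and Slc2a4 (3 of 5), which did not differ beyond their spread. Sums over transcripts overstate genes with a short annotated transcript. The 437-base Ldhb-202 held 23.1% of Ldhb counts but 57.3% of its TPM, and the 594-base noncoding Hk2-202 held 6.15% of Hk2 counts but 46.0% of its TPM. With only the coding transcript that held the most counts, a scale chosen after seeing the data, Ldhb came after Pdk4 (349.6 against 699.5 TPM) and the other 8 genes kept their rank.

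Between genotypes, none of the 10 genes passed edgeR's test (0 of 10 at an adjusted p under 0.05, against 0.00608% of all genes tested, and 0 of 10 at an unadjusted p under 0.05, against 5.23%). At the adjusted threshold edgeR did not call Atf4 itself either, so the lack of a call cannot show that these genes were unchanged. The 1 gene that edgeR called is outside the pathway, the calcium channel gene Cacna1i, named after its values were seen. It had 67.2, 98.8 and 79.4 CPM in the ATF4 BKO mice and 0.0633 and 0.207 CPM in the WT mice. The cause of this difference was not tested. DESeq2 called 0 of 10 as well, against 0.736% of all genes. Normalised read counts (CPM, counts relative to the TMM-scaled library total) of Ldha in all 3 ATF4 BKO mice exceeded those of either WT mouse, which held for 8.95% of all genes, and the other 9 genes overlapped. In TPM, Ldha overlapped as well. The median log2 fold change of the 10 genes was 0.09, beside 0.01 over all genes tested. The sample titles give only genotype, tissue, cold and a number for each mouse, and with 2 WT mice the spread within WT rests on 1 pair.

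**Figure D1:**
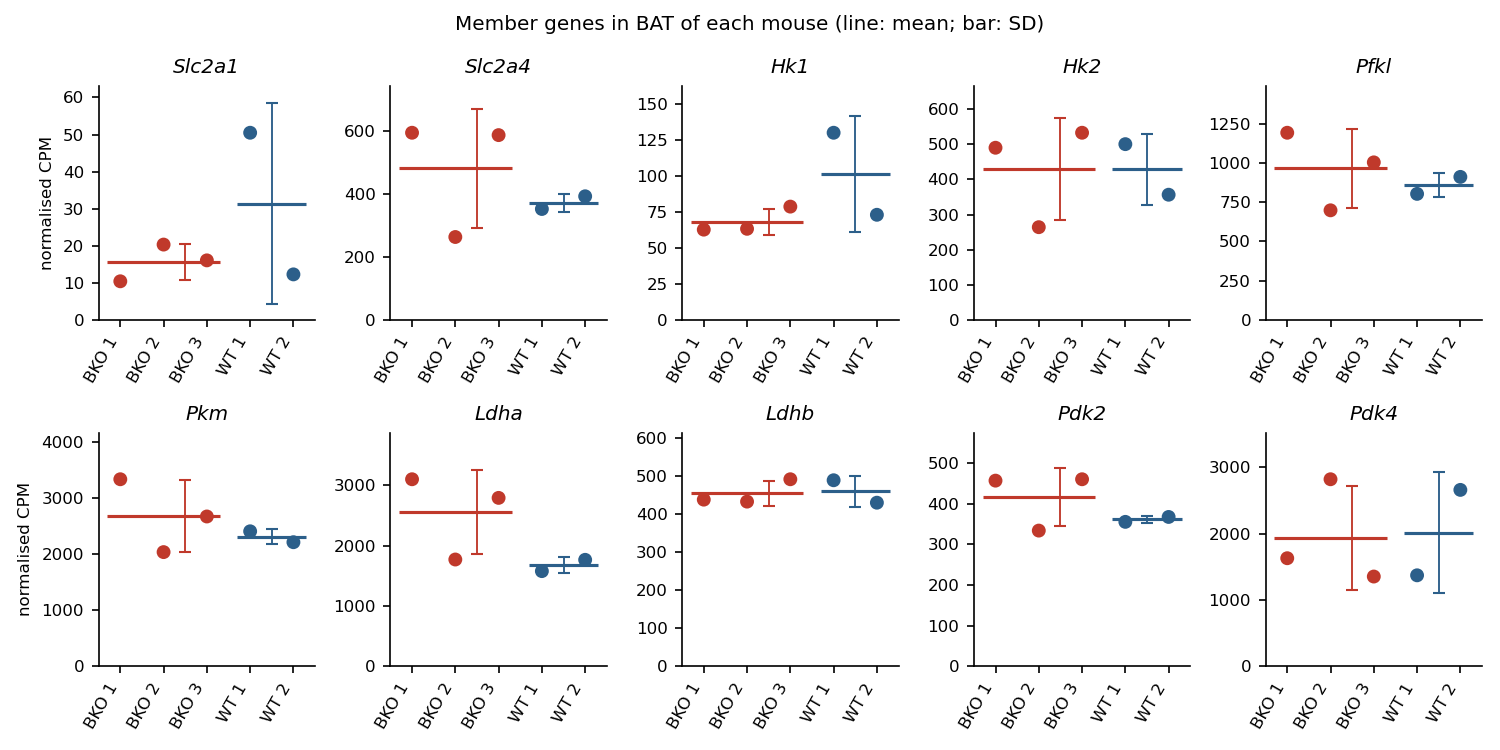
Normalised CPM (y axis, from 0) of the 10 genes in each mouse (x axis), with ATF4 BKO in red and WT in blue, the group mean as a line and the SD as a bar. ATF4 BKO replicate 2 is the lowest mouse for Slc2a4, Hk2, Pfkl, Pkm and Pdk2 and the highest for Pdk4, and WT replicate 1 stands above all others for Slc2a1 and Hk1.

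The transporters differed more between mice than between genotypes. Slc2a4 (ENSMUSG00000018566.14, chr11:69942539-69948188, minus strand), the insulin-responsive transporter GLUT4, had 596, 264 and 588 CPM in the ATF4 BKO mice and 353 and 393 CPM in the WT mice. ATF4 BKO replicates 1 and 3 were above both WT mice and replicate 2 was below both, so the genotypes overlapped. The log2 fold change was 0.37 ± 0.36 (SE), with an adjusted p = 0.942 (edgeR), and was 0.19 without ATF4 BKO replicate 1 and 0.68 without replicate 2. It was 0.075 with limma on log2(TPM + 1) and 0.089 with a replicate block. With all mice DESeq2 did not call Slc2a4 (adjusted p = 0.9999). Without replicate 2, the 1 ATF4 BKO mouse below both WT mice, DESeq2 called it higher in ATF4 BKO mice (log2 fold change 0.68, adjusted p = 0.00185), where it called 1.27% of genes.

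Slc2a1 (ENSMUSG00000028645.11, chr4:119108711-119137983, plus strand), GLUT1, the transporter most cells use for basal uptake, had 10.4, 20.3 and 16.0 CPM in the ATF4 BKO mice and 50.5 and 12.2 CPM in the WT mice. The level of WT replicate 1 stood apart and that of WT replicate 2 lay among the ATF4 BKO mice. The log2 fold change of -1.01 ± 0.58 (SE) (adjusted p = 0.916, edgeR) rested on that mouse: it was 0.36 without WT replicate 1, -1.71 without WT replicate 2 and -0.79 without ATF4 BKO replicate 1. With all mice DESeq2 did not call Slc2a1 (adjusted p = 0.964), and its log2 fold change was -1.70 without WT replicate 2, in a fit with 1 WT mouse. Within the file-name prefixes the difference in log2 CPM was -1.76 for the first and 0.38 for the second. Most Slc2a1 counts fell on Slc2a1-204, a transcript annotated for nonsense-mediated decay, which held 52.9% to 73.5% of them per mouse, more than the coding Slc2a1-201 in every mouse.

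Erythroid RNA was also highest in WT replicate 1, the mouse with the highest Slc2a1. Summed over the 7 erythroid markers, the level was 3414, 5418 and 3209.8 TPM in the ATF4 BKO mice and 9026 and 4828 TPM in the WT mice. All 7 were highest in WT replicate 1, their most abundant gene was Hbb-bs, a globin, and their median log2 fold change was -0.66, or -0.031 without WT replicate 1 and -1.08 without WT replicate 2. Their part in the Slc2a1 result was not tested. Among 8730 other genes with a mean of at least 10 CPM, those whose centred log2 CPM lay nearest to Slc2a1 over the 5 libraries (Euclidean distance) were Sncg (0.38), Tgm2 (0.45), Tfrc (0.46), Srxn1 (0.48), Anxa3 (0.54).

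Slc2a4 made up most transporter mRNA of this pair in every mouse, with a share of the TPM of Slc2a1 and Slc2a4 of 98.3%, 92.9% and 97.5% in the ATF4 BKO mice and 88.5% and 97.3% in the WT mice. The shares overlapped (difference 3.36 percentage points, exact permutation test, two-sided, p = 0.5, adjusted over 6 shares p = 0.72). With 3 against 2 mice there are 10 splits, and no share can reach a p below 0.1.

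Of the hexokinases, Hk2 had about the same mean in both genotypes and Hk1 was highest in WT replicate 1. Hk2 (ENSMUSG00000000628.10, chr6:82725025-82774454, minus strand), the mitochondria-bound, insulin-responsive hexokinase of muscle and fat, had 491, 264 and 533 CPM in the ATF4 BKO mice and 501 and 357 CPM in the WT mice. Its mean was 429 ± 145 (SD, n = 3) against 429 ± 102 (SD, n = 2), and its log2 fold change was 0.00 ± 0.33 (SE) (adjusted p = 0.999, edgeR). Left-out mice moved it from -0.23 (without WT replicate 2) to 0.29 (without WT replicate 1), and it was -0.10 without ATF4 BKO replicate 1. The prefix values had opposite signs, -0.48 and 0.58.

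Hk1 (ENSMUSG00000037012.18, chr10:62268855-62379908, minus strand), the hexokinase of brain and red cells, had 62.5, 63.1 and 78.5 CPM in the ATF4 BKO mice and 129.8 and 72.8 CPM in the WT mice. WT replicate 1 was highest, while WT replicate 2 lay below ATF4 BKO replicate 3. The log2 fold change was -0.57 ± 0.26 (SE) (unadjusted p = 0.0684, adjusted p = 0.911, edgeR), and it was -0.08 without WT replicate 1, -0.94 without WT replicate 2 and -0.52 without ATF4 BKO replicate 1. With DESeq2 the log2 fold change was -0.93 without WT replicate 2, in a fit with 1 WT mouse. Within the prefixes the differences were -1.04 and 0.11, so it did not hold within the second. As for Slc2a1, erythroid markers were highest in the same mouse and their part was not tested.

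Hk2 carried most hexokinase mRNA in all mice, at 89.6%, 76.4% and 88.5% in the ATF4 BKO mice and 78.9% and 79.7% in the WT mice of the TPM of Hk1, Hk2 and Hk3 (difference 5.55 percentage points, exact permutation test, two-sided, p = 0.4, adjusted p = 0.72). In estimated counts, where the noncoding Hk2-202 weighs less, the difference was 2.58 percentage points, and in TPM it ranged from 3.17 (without ATF4 BKO replicate 1) to 9.75 (without ATF4 BKO replicate 2). Hk3, a hexokinase of leukocytes, had 8.66, 31.6 and 9.66 CPM in the ATF4 BKO mice and 2.44 and 15.1 CPM in the WT mice and was highest in the mice with the most macrophage and immune RNA. The sum of those 12 markers was 722, 1386 and 458 TPM in the ATF4 BKO mice and 208 and 1241 TPM in the WT mice, with Lyz2, a lysozyme of myeloid cells, the most abundant and 12 of 12 lowest in WT replicate 1. The part of immune RNA in the Hk3 values was not tested. In bulk tissue, fewer cells of a type and less RNA per cell cannot be told apart.

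Pfkl (ENSMUSG00000020277.10, chr10:77986947-78010083, minus strand), the liver-type subunit of phosphofructokinase, had 1192, 698 and 1003 CPM in the ATF4 BKO mice and 802 and 911 CPM in the WT mice. ATF4 BKO replicate 1 was the highest mouse and replicate 2 the lowest, on either side of both WT mice. The log2 fold change was 0.17 ± 0.25 (SE) (adjusted p = 0.957, edgeR) and -0.01 without ATF4 BKO replicate 1. With limma on log2(TPM + 1) it was -0.096. Pfkl held 71.8%, 67.0% and 68.7% in the ATF4 BKO mice and 68.6% and 69.1% in the WT mice of the TPM of the 3 subunit genes, a difference of 0.32 percentage points (exact permutation test, two-sided, p = 0.9, adjusted p = 0.9).

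Pkm was the second most abundant of the 10 genes and had 3329.7, 2032 and 2667 CPM in the ATF4 BKO mice and 2403 and 2209 CPM in the WT mice. Only ATF4 BKO replicate 2 lay below the WT mice and the genotypes overlapped. The log2 fold change was 0.21 ± 0.25 (SE) (adjusted p = 0.942, edgeR), and ranged from 0.03 without ATF4 BKO replicate 1 to 0.40 without ATF4 BKO replicate 2. It was 0.096 with library totals alone and -0.0044 with limma on log2(TPM + 1). Of its 31-base words, 34.7% occur in other annotated genes as well, yet the genes that share at least 100 words with it held at most 0.0503% as many counts.

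Pkm transcripts with exon 10 (M2) outnumbered those with exon 9 (M1) in every mouse. M1 made up 36.9%, 35.3% and 30.03% in the ATF4 BKO mice and 40.2% and 38.3% in the WT mice of the TPM of the pair. All 3 ATF4 BKO mice were below both WT mice, at 34.1% ± 3.60 (SD, n = 3) against 39.2% ± 1.38 (SD, n = 2). The difference was -5.17 percentage points (exact permutation test, two-sided, p = 0.2, adjusted p = 0.72). With so few mice no p below 0.1 was possible, so the test could not have called this share. M1 is the isoform of skeletal muscle, whose summed markers were higher in both WT mice than in any ATF4 BKO mouse and highest in WT replicate 2. The M1 share was highest in WT replicate 1, and the part of muscle RNA in this share was not tested. With 1 mouse left out the difference ranged from -6.59 percentage points (without ATF4 BKO replicate 1) to -3.15 (without ATF4 BKO replicate 3), with -6.15 without WT replicate 2 and -4.20 without WT replicate 1.

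Ldha (ENSMUSG00000063229.15, chr7:46841475-46855627, plus strand), the lactate dehydrogenase subunit that favours reduction of pyruvate to lactate, had 3103, 1771 and 2794 CPM in the ATF4 BKO mice and 1579 and 1766 CPM in the WT mice. ATF4 BKO replicates 1 and 3 were well above the WT mice, and replicate 2 was above WT replicate 2 by less than 1%. It had 2454, 1615 and 2277 TPM in the ATF4 BKO mice and 1496 and 1730.1 TPM in the WT mice, so ATF4 BKO replicate 2 lay below WT replicate 2 on that scale. The means in CPM were 2556 ± 697 (SD, n = 3) against 1672 ± 133 (SD, n = 2), and the log2 fold change was 0.61 ± 0.28 (SE) (unadjusted p = 0.0684, adjusted p = 0.911, edgeR). Its sign was the same without each mouse, from 0.45 (without ATF4 BKO replicate 1) to 0.84 (without ATF4 BKO replicate 2), and within both prefixes (0.57 and 0.66). On log2(TPM + 1) with limma it was 0.37, where the median of the genes tested was -0.12. With all mice DESeq2 did not call Ldha (adjusted p = 0.788). Without ATF4 BKO replicate 2, the ATF4 BKO mouse nearest to the WT mice, DESeq2 called it higher in ATF4 BKO mice (log2 fold change 0.83, adjusted p = 0.000131), where it called 1.27% of genes.

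Ldhb (ENSMUSG00000030246.11, chr6:142490249-142507957, minus strand), the heart-type subunit that favours oxidation of lactate, had 437, 432 and 491 CPM in the ATF4 BKO mice and 488 and 429 CPM in the WT mice. These values spanned a narrow range in both genotypes, and the log2 fold change was -0.02 ± 0.15 (SE) (adjusted p = 0.990, edgeR), or 0.01 without ATF4 BKO replicate 1. Ldhb made up 24.5%, 35.1% and 27.9% in the ATF4 BKO mice and 39.3% and 34.7% in the WT mice of the TPM of the pair. The share overlapped between genotypes (difference -7.80 percentage points, exact permutation test, two-sided, p = 0.3, adjusted p = 0.72). Here too no p below 0.1 was possible. In estimated counts, which the short Ldhb-202 inflates less, the share was 12.3%, 19.6% and 14.9% in the ATF4 BKO mice and 23.6% and 19.5% in the WT mice.

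**Figure D2:**
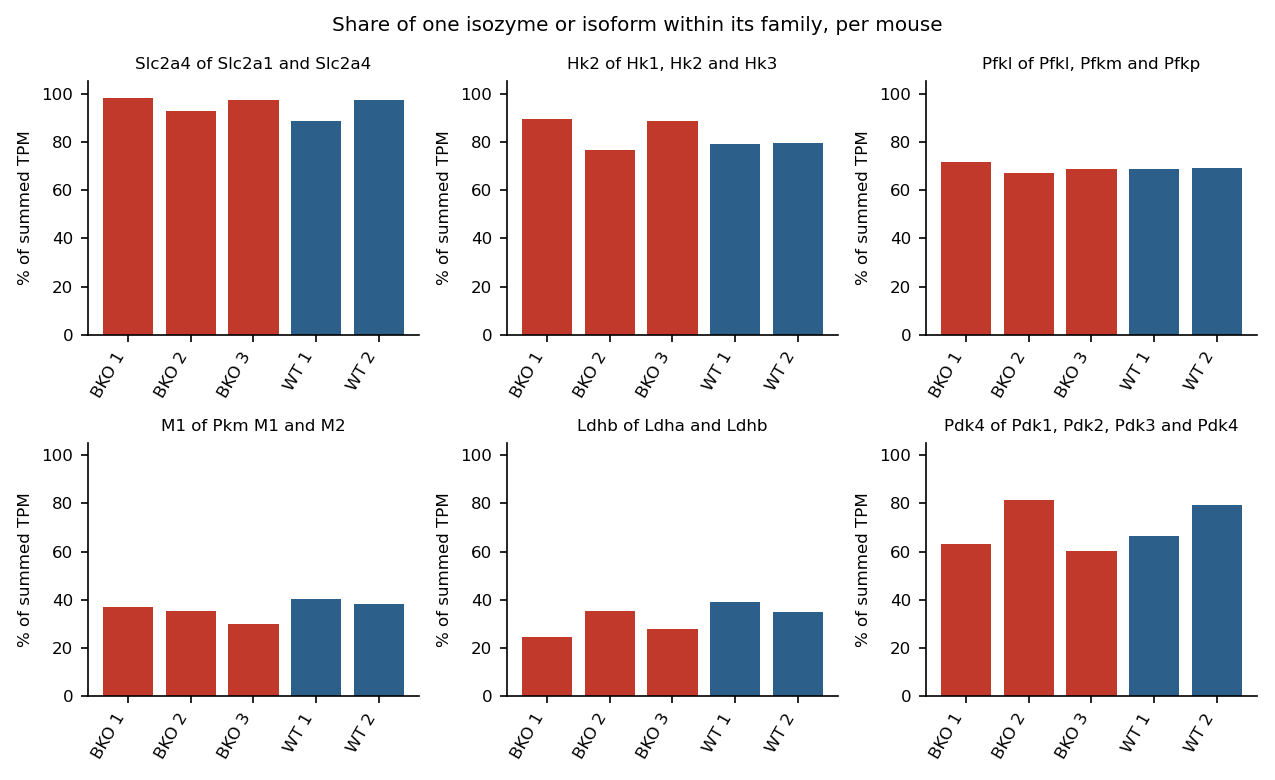
Share of summed TPM in percent (y axis, from 0) that 1 isozyme or isoform takes within its family, in each ATF4 BKO mouse (red bars) and WT mouse (blue bars). The M1 share of Pkm is the only 1 of the 6 whose genotypes do not overlap, with ATF4 BKO mice from 30.03% to 36.9% and WT mice at 38.3% and 40.2%.

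Pdk4 (ENSMUSG00000019577.6, chr6:5483351-5496309, minus strand), the pyruvate dehydrogenase kinase that is induced by fasting and fatty acids, varied widely within each genotype. It had 1629, 2821 and 1353 CPM in the ATF4 BKO mice and 1372 and 2660.0 CPM in the WT mice. ATF4 BKO replicate 2 and WT replicate 2 were high and the other 3 mice low, so each genotype held both levels. The log2 fold change was -0.06 ± 0.41 (SE) (adjusted p = 0.989, edgeR) and moved from -0.45 without WT replicate 1 to 0.47 without WT replicate 2, and was 0.05 without ATF4 BKO replicate 1. Differences within the prefixes were 0.64 and -0.97.

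Pdk2 (ENSMUSG00000038967.13, chr11:95026258-95041354, minus strand), the kinase most widely expressed across tissues, had 456, 334 and 459.8 CPM in the ATF4 BKO mice and 355 and 367 CPM in the WT mice. Its values overlapped, with a log2 fold change of 0.21 ± 0.19 (SE) (adjusted p = 0.936, edgeR), which was 0.14 without ATF4 BKO replicate 1 and 0.36 without ATF4 BKO replicate 2. This fold change was 0.034 with limma on log2(TPM + 1), 0.090 with library totals alone and 0.11 with a replicate block. Pdk4 made up 63.0%, 81.5% and 60.3% in the ATF4 BKO mice and 66.5% and 79.3% in the WT mice of the TPM of the 4 kinases (exact permutation test, two-sided, p = 0.6, adjusted p = 0.72). Pdk4 was the most abundant of the list of kinases and phosphatases, and Txnip, which inhibits glucose uptake and is induced by glucose, was highest in the same 2 mice, with 626, 1892 and 694 CPM in the ATF4 BKO mice and 514 and 945 CPM in the WT mice.

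**Figure D3:**
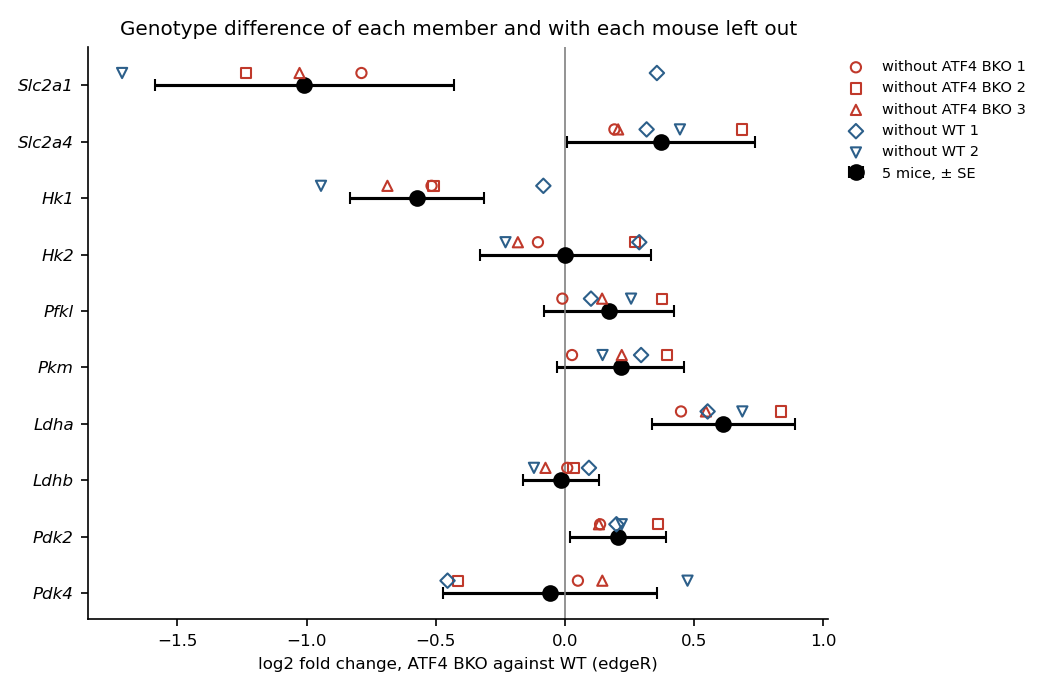
Log2 fold change of ATF4 BKO against WT (x axis) for each gene (y axis) with all 5 mice (black, ± SE) and with 1 mouse left out (open symbols, red for an ATF4 BKO mouse and blue for a WT mouse). Slc2a1 runs from -1.71 to 0.36 with the choice of WT mouse, while with 1 mouse left out Slc2a4, Pkm, Ldha and Pdk2 stay above 0 and Hk1 below 0.

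Around the 10 genes, 10 lists of the pathway held 136 genes, the 10 included, of which 132 were tested. By edgeR 0 were called, and at an unadjusted p under 0.05 there were 9 lower and 3 higher in ATF4 BKO mice (9.09% of the 132, against 5.23% of all genes). DESeq2 called 2, Pgam2 and Trib3, both lower, against 0.736% of all genes. The median log2 fold change was 0.05. Of the 132, 10 were below both WT mice in every ATF4 BKO mouse, against 10.6% of all genes, and 8 were above both, against 8.95%. The medians of the single lists depend on the scale, since all 10 were below 0 with limma on log2(TPM + 1), where the median of the genes tested was -0.12. With 1 mouse left out, the counts at an unadjusted p under 0.05 were 8 lower and 3 higher without ATF4 BKO replicate 1 (4.87% of all genes in either direction) and 8 and 16 without ATF4 BKO replicate 2 (6.82%). They were 6 and 2 without ATF4 BKO replicate 3 (3.12%), 8 and 2 without WT replicate 1 (2.33%) and 7 and 6 without WT replicate 2 (12%). By edgeR's adjusted p, Pgam2, Eno3 and Pygm were called without WT replicate 1 (0.142% of all genes) and 0 pathway genes without WT replicate 2 (0.00624% of all genes) or without any 1 of the ATF4 BKO mice (0% of all genes).

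Among 10 hexose transporters tested, 0 passed an unadjusted p under 0.05 (5.23% of all genes) and the median was 0.26. Slc2a4 was the most abundant. Slc2a9, a urate and hexose transporter, was above both WT mice in every ATF4 BKO mouse, which held for 8.95% of all genes. It had 5.39, 6.44 and 5.08 CPM in the ATF4 BKO mice and 3.96 and 4.31 CPM in the WT mice (0.45 ± 0.23 (SE), adjusted p = 0.911, edgeR).

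The 22 glycolysis enzymes tested had a median log2 fold change of 0.05, with 10 below and 12 above 0. Aldoa, the main aldolase here and the most abundant of the list by mean TPM, had 4385, 4158 and 5018 TPM in the ATF4 BKO mice and 4562 and 4094 TPM in the WT mice (0.27 ± 0.21 (SE), adjusted p = 0.931, edgeR). Of the 3 at an unadjusted p under 0.05 (5.23% of all genes), Pgam2 and Eno3 are muscle-type isozymes of phosphoglycerate mutase and enolase. Pgam2 had 0.839, 0.534 and 0.943 CPM in the ATF4 BKO mice and 1.99 and 18.7 CPM in the WT mice (-3.74 ± 0.89 (SE), DESeq2 adjusted p = 0.00312), and Eno3 had 5.96, 7.58 and 6.83 CPM in the ATF4 BKO mice and 9.62 and 72.9 CPM in the WT mice (-2.60 ± 0.74 (SE), adjusted p = 0.831, edgeR). Both were far above the rest in WT replicate 2, and without that mouse their log2 fold changes were -1.38 and -0.52. Eno2, the neuronal enolase, was higher in every ATF4 BKO mouse at low levels, with 2.83, 4.45 and 2.39 CPM in the ATF4 BKO mice and 1.20 and 1.83 CPM in the WT mice (1.08 ± 0.39 (SE), unadjusted p = 0.0317, adjusted p = 0.911, edgeR). Nerve and Schwann cell markers, of which 6 of 8 were tested, had a median of 0.70 (0.33 without ATF4 BKO replicate 1), had sums of 35.8, 23.96 and 14.7 TPM in the ATF4 BKO mice and 23.1 and 15.6 TPM in the WT mice and were led by Mbp, a myelin protein; Th, of sympathetic nerves, was at 0 in 4 of the 5 mice. Their part in the Eno2 values was not tested.

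Among glycogen enzymes, too, the muscle-type isozymes were highest in WT replicate 2. Of 19 tested, 3 had an unadjusted p under 0.05 (5.23% of all genes), all lower in every ATF4 BKO mouse (10.6% of all genes): Pygm, muscle glycogen phosphorylase (-3.44 ± 0.96 (SE)), and Phka1 (-0.54 ± 0.22 (SE)) and Phkg1 (-1.41 ± 0.50 (SE)), muscle-type subunits of phosphorylase kinase. Pygm had 2.30, 2.46 and 1.82 CPM in the ATF4 BKO mice and 3.10 and 44.5 CPM in the WT mice, and its log2 fold change was -0.52 without WT replicate 2, where that of Phka1 was -0.18 and that of Phkg1 -0.51. Without WT replicate 2 none of these 3 had an unadjusted p under 0.05, and the 1 glycogen enzyme that did (12% of all genes) was Ugp2, which makes the sugar donor of glycogen. Phosphorylase of the liver type, Pygl, the most abundant of the list, had 1124, 456 and 1000.3 CPM in the ATF4 BKO mice and 554 and 702 CPM in the WT mice (0.45 ± 0.39 (SE), adjusted p = 0.936, edgeR). The list's median was 0.00.

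All 22 skeletal muscle markers were highest in WT replicate 2, and 20 had an unadjusted p under 0.05 for the genotype difference, against 5.23% of all genes. A gene could pass the filter on low counts through the 2 WT mice alone, and without WT replicate 2 only 18 of the 22 passed. The count of 20 can thus follow in part from the filter. The median log2 fold change was -6.39 over the 22 with all mice and -2.08 over the 18 without WT replicate 2. Acta1, skeletal muscle actin, was the most abundant, with 0.993, 3.15 and 0.289 TPM in the ATF4 BKO mice and 17.2 and 345 TPM in the WT mice. Myoz1 and Myot were at 0 in ATF4 BKO replicates 1 and 3. The part of muscle RNA in the values of Pgam2, Eno3, Pygm, Phka1, Phkg1 and Pfkm was not tested. Pfkm, the muscle-type phosphofructokinase subunit, had 65.0, 55.9 and 71.7 CPM in the ATF4 BKO mice and 68.6 and 112 CPM in the WT mice (-0.49 ± 0.23 (SE), adjusted p = 0.911, edgeR), with a log2 fold change of -0.11 without WT replicate 2.

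**Figure D4:**
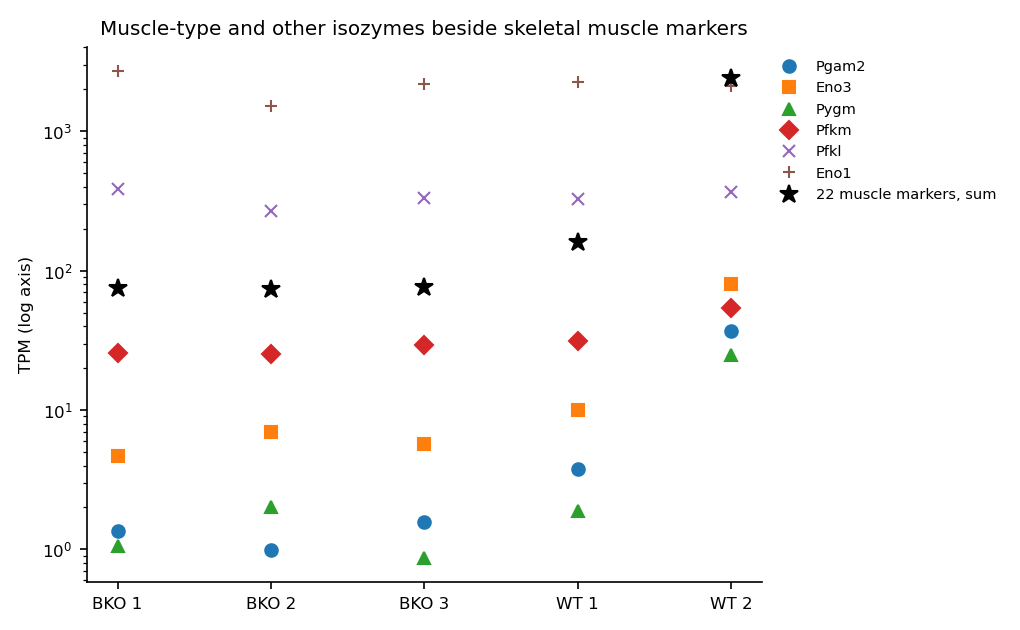
TPM on a log axis (y) in each mouse (x) for muscle-type isozymes (Pgam2, Eno3, Pygm, Pfkm), for Pfkl and Eno1, and for the sum of 22 skeletal muscle markers (stars). The muscle-type isozymes and the markers are highest in WT replicate 2, where Eno3 reaches 80.8 TPM, while Pfkl and Eno1 stay within 267 to 387 and 1522 to 2690.2 TPM.

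Enzymes that set or remove fructose bisphosphates included 2 of the 12 pathway genes at an unadjusted p under 0.05 (5.23% of all genes). Fbp1, fructose bisphosphatase of the liver type, had 2.21, 1.10 and 2.53 CPM in the ATF4 BKO mice and 0.601 and 0.472 CPM in the WT mice, higher in every ATF4 BKO mouse (1.85 ± 0.47 (SE), unadjusted p = 0.00752, adjusted p = 0.771, edgeR). Tigar, a bisphosphatase known to restrain glycolysis, had 27.6, 22.9 and 29.5 CPM in the ATF4 BKO mice and 36.1 and 38.4 CPM in the WT mice, lower in every ATF4 BKO mouse (-0.48 ± 0.15 (SE), unadjusted p = 0.0191, adjusted p = 0.911, edgeR). Both kept their sign without each mouse, from 1.61 to 2.15 for Fbp1 and from -0.56 to -0.37 for Tigar. Pfkfb3, the most abundant of these 7 genes, had 559, 251 and 514 CPM in the ATF4 BKO mice and 303 and 452 CPM in the WT mice (0.23 ± 0.38 (SE), adjusted p = 0.963, edgeR; 0.022 without ATF4 BKO replicate 1), and the list's median was 0.23.

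Carriers of pyruvate and lactate had a median of 0.16 over 7 genes. Bsg, basigin, the chaperone that brings monocarboxylate transporters to the cell surface, had 1249, 901 and 1186 CPM in the ATF4 BKO mice and 674 and 760.3 CPM in the WT mice. Every ATF4 BKO mouse was above both WT mice (0.63 ± 0.20 (SE), unadjusted p = 0.0191, adjusted p = 0.911, edgeR), and its log2 fold change ranged from 0.54 to 0.78 with 1 mouse left out. Mpc1, a subunit of the mitochondrial pyruvate carrier and the most abundant of the list, had 784, 486 and 723 CPM in the ATF4 BKO mice and 628 and 582 CPM in the WT mice (0.13 ± 0.23 (SE), adjusted p = 0.964, edgeR; -0.0016 without ATF4 BKO replicate 1).

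The 5 subunit genes of pyruvate dehydrogenase had a median of -0.02, from -0.09 to 0.08, and 0 of 5 had an unadjusted p under 0.05, against 5.23% of all genes. Pdhb, the beta subunit and the most abundant, had 1153, 629 and 912 CPM in the ATF4 BKO mice and 924 and 895 CPM in the WT mice. All 5 were lowest in ATF4 BKO replicate 2, the mouse with the highest Pdk4, and the list's median was 0.20 without that mouse. It was also the lowest mouse for 21.8% of all genes and for 55 of the 132 pathway genes. The 7 kinases and phosphatases had a median of 0.15, with 0 of 7 at an unadjusted p under 0.05, against 5.23% of all genes.

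Of 15 genes for other fates of pyruvate and glucose 6-phosphate (median -0.02), Pck2, mitochondrial phosphoenolpyruvate carboxykinase and a known ATF4 target, had 20.1, 29.3 and 29.2 CPM in the ATF4 BKO mice and 61.2 and 35.3 CPM in the WT mice. It was lower in every ATF4 BKO mouse (-0.88 ± 0.28 (SE), unadjusted p = 0.0203, adjusted p = 0.911, edgeR), and -0.42 without WT replicate 1. Pck1, its cytosolic counterpart and the most abundant of the list by mean TPM, was higher in every ATF4 BKO mouse, with 4205, 3295 and 4318 CPM in the ATF4 BKO mice and 2563 and 3215 CPM in the WT mice (0.45 ± 0.22 (SE), unadjusted p = 0.0865, adjusted p = 0.911, edgeR). H6pd, a dehydrogenase of hexose phosphates in the endoplasmic reticulum, did not overlap either (0.38 ± 0.19 (SE), adjusted p = 0.911, edgeR). Of the 15 genes, 1 was below both WT mice in every ATF4 BKO mouse (10.6% of all genes) and 2 were above both (8.95%).

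The 20 genes of the insulin signal to GLUT4 had a median of 0.01. Trib3, an inhibitor of Akt that is also an ATF4 target and is counted among the ATF4 target controls, had 7.11, 15.9 and 7.27 CPM in the ATF4 BKO mice and 53.6 and 44.0 CPM in the WT mice (-2.27 ± 0.38 (SE), adjusted p = 0.671 by edgeR, and adjusted p = 1.42e-05 by DESeq2). It was the only gene of this list that DESeq2 called. Akt2, the most abundant and the main Akt of insulin-responsive fat, had 508, 303 and 414 CPM in the ATF4 BKO mice and 421 and 445 CPM in the WT mice (-0.08 ± 0.23 (SE), adjusted p = 0.978, edgeR; 0.11 without ATF4 BKO replicate 2). Rab10 (-0.25 ± 0.14 (SE)) and Rac1 (0.11 ± 0.12 (SE)), small GTPases of GLUT4 traffic, did not overlap between genotypes but had unadjusted p-values of 0.128 and 0.421 (edgeR). Of the 20 genes, 2 were below both WT mice in every ATF4 BKO mouse (10.6% of all genes) and 1 was above both (8.95%).

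Among 20 regulators of glycolytic and Pdk genes (median 0.09), 1, Hif1a, had an unadjusted p under 0.05, a share of 5% against 5.23% of all genes. This oxygen-sensitive transcription factor subunit had 65.9, 64.0 and 55.2 CPM in the ATF4 BKO mice and 78.0 and 77.6 CPM in the WT mice, lower in every ATF4 BKO mouse (-0.33 ± 0.13 (SE), unadjusted p = 0.0390, adjusted p = 0.911, edgeR). Txnip was the most abundant (0.55 ± 0.56 (SE), adjusted p = 0.942, edgeR; -0.12 without ATF4 BKO replicate 2).

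**Figure D5:**
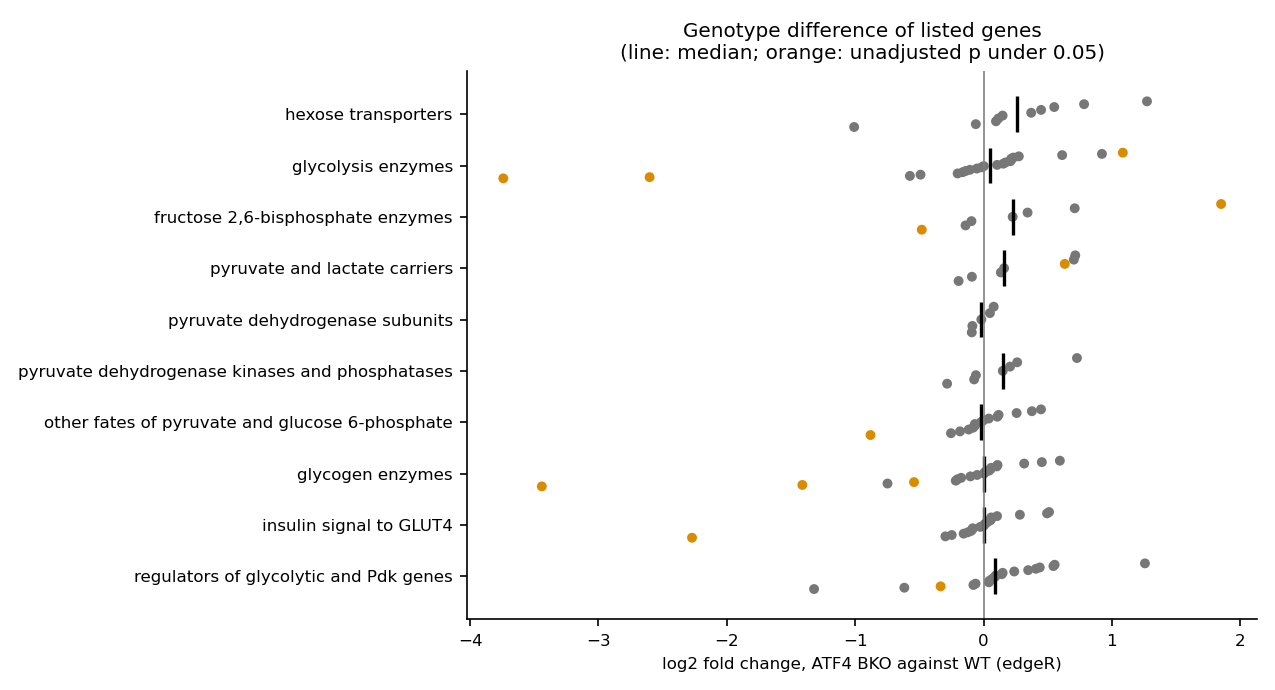
Log2 fold change of ATF4 BKO against WT (x axis) for each tested gene of the 10 lists (y axis), with list medians as black lines and genes at an unadjusted p under 0.05 in orange. Medians lie between -0.02 and 0.26, and the far left points are Pgam2, Pygm, Eno3 and Trib3, all with the 5 mice included, while on log2(TPM + 1) with limma all 10 medians were below 0.

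ATF4 BKO replicate 2 stood apart from the other ATF4 BKO mice over much of the pathway. Of the 132 pathway genes, 55 were lowest in this mouse, against 21.8% of all genes tested, and 47 were highest in ATF4 BKO replicate 1, against 16.7%; these 2 mice were singled out after the values were seen. Without ATF4 BKO replicate 2, DESeq2 called 11 of the 132 pathway genes, against 1.27% of all genes, of which Slc2a4, Ldha, Fbp2, Bsg, Pygl, Ppp1r3d, Egln3 and Mlxipl were higher in ATF4 BKO mice and Pgam2, Trib3 and Myc lower. Without WT replicate 2 it called 8, against 3.33% of all genes, with Hk3, Slc16a3 and Emb higher in ATF4 BKO mice and Slc2a1, Hk1, Pck2, Ugp2 and Trib3 lower. It called 2 without ATF4 BKO replicate 1 (0.735%), 2 without ATF4 BKO replicate 3 (0.333%) and 4 without WT replicate 1 (0.458%). Brown fat genes were abundant in every mouse: Ucp1, uncoupling protein of brown fat, had 9427, 8039 and 9754 TPM in the ATF4 BKO mice and 8372 and 10072 TPM in the WT mice. The sum of 15 brown adipocyte markers was 28912, 28551 and 33167 TPM in the ATF4 BKO mice and 28803 and 31909 TPM in the WT mice, led by Fabp4, with a median log2 fold change of 0.16 (-0.055 without WT replicate 1). Macrophage and immune markers were high in this mouse, as given beside Hk3, and their part in the spread of the pathway genes was not tested.

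The remaining markers were 8 endothelial genes, all with a log2 fold change above 0 (median 0.33, 0.51 without WT replicate 2, 4 of 8 above both WT mice in every ATF4 BKO mouse, against 8.95% of all genes) and led by Egfl7, with sums of 494, 589.7 and 571 TPM in the ATF4 BKO mice and 456 and 582 TPM in the WT mice. White adipocyte markers, of which 7 of 8 were tested, had a median of 0.24, with 4 of 7 above 0. The median was -0.33 without ATF4 BKO replicate 2 and -0.017 with limma on log2(TPM + 1). These markers had sums of 71.5, 166 and 92.8 TPM in the ATF4 BKO mice and 119 and 153 TPM in the WT mice, led by Npr3. Among them Lep, leptin, was lower in every ATF4 BKO mouse, with 2.12, 0.320 and 2.19 CPM in the ATF4 BKO mice and 12.1 and 6.17 CPM in the WT mice (-2.57 ± 0.73 (SE), unadjusted p = 0.0125, adjusted p = 0.831, edgeR). The part of these cell types in the values of the 10 genes was not tested.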

How the data were processed

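BAT mRNA of 3 ATF4 BKO mice and 2 WT mice was sequenced from stranded libraries. The authors counted reads per transcript with Kallisto 0.45.0 and deposited, per mouse, estimated counts, TPM (scaled by the counter for effective length and library size) and transcript lengths, which were used for the length-scaled alternative. The genome build named in the study is mm10; its transcript annotation and strand setting are not given in the sources used here. The paper's other workflow (HISAT2, featureCounts) was not analysed here.

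Of 141450 transcripts, 138191 matched GENCODE M21 (GRCm38) by identifier and were summed over 52022 genes; the other 3259 held 1.16% to 1.29% of counts per mouse and were left out. Sums were rounded to whole numbers. Total estimated counts were 24698337, 27578833 and 31558111 in ATF4 BKO replicates 1 to 3 and 30996438 and 32452751 in WT replicates 1 and 2. No 2 libraries agreed within sampling noise (lowest chi-square per degree of freedom 52.9). Aldoa has 2 gene identifiers, and the 1 with nearly all counts was used.

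The genotype comparison used edgeR 4.0.16 (R 4.3.3; TMM, quasi-likelihood, genotype the sole term, at least 10 counts in at least 2 mice, Benjamini-Hochberg threshold 0.05), fitted on all 16450 genes. DESeq2 1.42.0, the tool of the study, limma 3.58.1 on log2(TPM + 1) and log2(TPM + 0.1), other scalings, no filter, length-scaled counts, left-out mice and blocks were alternatives; DESeq2 with a mouse left out and levels from 1 transcript were added after seeing the data. Levels between genes are in TPM and genotype comparisons in CPM. The 6 isozyme shares were compared by exact permutation of the mice. Fits were also run on simulated data, and the outcome is not reported here.

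Every member is named. From each pathway list were named genes with an unadjusted p under 0.05, the most abundant by mean TPM, and up to 3 per direction with the largest change among genes whose genotypes do not overlap; from each marker list, the most abundant gene and genes at 0. Hk3, Pfkm, Eno1, Lep and the genes DESeq2 called with a mouse left out were outside the rule and were chosen after their values were seen. Other genes named outside the rule include Ucp1 and Tpi1. The genes nearest to Ldha in pattern are not reported here. The members and lists were chosen with earlier results of these data known. Shared sequence was measured by the 31-base words of each gene that other genes also hold: 34.7% for Pkm, 33.0% for Ldhb, 19.6% for Ldha and at most 2.09% for the other members, with partner genes at no more than 0.353% of a member's counts.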

Additional observations from a re-analysis of the deposited data

How the results depend on the processing

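Under every alternative run with all 5 mice, 0 of the 10 genes were called. Across all genes, edgeR called 1 gene, against 121 with DESeq2, 8 with no filter beyond 1 count, 0 with limma on log2(TPM + 1) with or without the filter (2013 without and 1431 with it at an unadjusted p under 0.05), 2 on log2(TPM + 0.1) and 0 with a file-name prefix block in edgeR (876 unadjusted). Leaving out 1 mouse gave 0 to 23 calls by edgeR (0 without each ATF4 BKO mouse, with 794, 1101 and 506 at an unadjusted p under 0.05, 23 without WT replicate 1 and 1 without WT replicate 2) and, by DESeq2, 54 (without ATF4 BKO replicate 3), 74 (without WT replicate 1), 120 (without ATF4 BKO replicate 1), 205 (without ATF4 BKO replicate 2) and 533 (without WT replicate 2), so the total with a mouse left out ranged from 0 to 533 and the number of the 10 genes called from 0 to 2. Those 2 were Slc2a4 and Ldha without ATF4 BKO replicate 2 and Slc2a1 and Hk1 without WT replicate 2, all by DESeq2. A fit with 1 WT mouse assumes that it varies like the other group. Log2 fold changes with 1 mouse left out, over edgeR and DESeq2, were -1.71 to 0.36 (Slc2a1), 0.19 to 0.68 (Slc2a4), -0.94 to -0.084 (Hk1), -0.23 to 0.29 (Hk2), -0.010 to 0.38 (Pfkl), 0.027 to 0.40 (Pkm), 0.45 to 0.84 (Ldha), -0.12 to 0.093 (Ldhb), 0.13 to 0.36 (Pdk2) and -0.46 to 0.49 (Pdk4). The sign turned for Hk2 with library totals alone (-0.12) and with no filter (-0.0018), for Pfkl with limma on log2(TPM + 1), with or without the filter (-0.096), and on log2(TPM + 0.1) (-0.096), for Pkm with the same fits (-0.0044 in each) and for Ldhb with length-scaled counts (0.032). With the sign kept, limma on log2(TPM + 1) gave 0.075 for Slc2a4, 0.37 for Ldha, 0.034 for Pdk2, 0.092 for Hk2, -0.15 for Ldhb and -0.24 for Pdk4, library totals alone gave 0.24 for Slc2a4, 0.049 for Pfkl, 0.096 for Pkm, 0.090 for Pdk2, -0.12 for Ldhb and -0.15 for Pdk4, and length-scaled counts gave 0.33 for Hk2. The median over all genes tested was -0.12 on log2(TPM + 1), where those of the 10 lists were -0.24 (pyruvate dehydrogenase subunits, as on log2(TPM + 0.1) and without the filter), -0.011 (kinases and phosphatases), -0.011 (hexose transporters), -0.086 (glycolysis), -0.018 (fructose 2,6-bisphosphate), -0.0073 (carriers), -0.22 (glycogen), -0.25 (other fates), -0.15 (insulin signal) and -0.087 (regulators). With a mouse left out, list medians ranged from -0.14 to 0.20 (pyruvate dehydrogenase subunits), -0.027 to 0.35 (pyruvate dehydrogenase kinases and phosphatases), 0.11 to 0.39 (hexose transporters), -0.085 to 0.17 (glycolysis enzymes), -0.013 to 0.49 (fructose 2,6-bisphosphate enzymes), 0.053 to 0.33 (pyruvate and lactate carriers), -0.17 to 0.092 (glycogen enzymes), -0.23 to 0.027 (other fates of pyruvate and glucose 6-phosphate), -0.026 to 0.045 (insulin signal to GLUT4) and 0.061 to 0.18 (regulators of glycolytic and Pdk genes). Differences in isozyme share, in percentage points, ranged from -1.02 to 7.74 for Slc2a4, -0.99 to 1.39 for Pfkl, 3.17 to 9.75 for Hk2, -6.59 to -3.15 for M1, -10.77 to -5.48 for Ldhb and -11.22 to 1.81 for Pdk4. Marker lists on log2(TPM + 1) with limma had medians of -0.017 (white adipocyte), -0.034 (brown adipocyte), 0.15 (endothelial) and 0.24 (nerve and Schwann cell). Those of the other marker lists were 0.32 (macrophage and immune), -0.76 (erythroid) and -2.77 (skeletal muscle). The cause of these shifts was not tested. Between mice 1 of the 2 genotypes, deviations from the genotype mean correlated at 0.047, and between mice 2 at 0.20. With 2 WT mice, their deviations are equal and opposite. Both values thus rest on 1 WT contrast and cannot show whether mice of the same number were paired. A replicate block in edgeR gave 0 calls (711 unadjusted), and with it Hk2 was -0.23, Pdk4 0.17, Slc2a4 0.089, Pfkl 0.093, Ldhb -0.075 and Pdk2 0.11. Of 200 values of single genes across the alternatives, 163 kept direction and call, as did 33 of 36 share differences in direction.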

Other observations

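Some genes of the pathway varied between mice more than between genotypes. Egln3, a prolyl hydroxylase of hypoxia-inducible factors, had 48.8, 10.6 and 28.9 CPM in the ATF4 BKO mice and 7.82 and 16.8 CPM in the WT mice (1.26 ± 0.66 (SE), adjusted p = 0.911, edgeR). Myc, a transcription factor that drives glycolytic genes, had 4.505, 37.1 and 6.94 CPM in the ATF4 BKO mice and 54.7 and 26.3 CPM in the WT mice (-1.32 ± 0.89 (SE), adjusted p = 0.920, edgeR), with ATF4 BKO replicates 1 and 3 low and replicate 2 between the WT mice. Ppargc1a, a coactivator of mitochondrial and Pdk4 genes, had 67.6, 181 and 61.4 CPM in the ATF4 BKO mice and 51.4 and 111 CPM in the WT mice (0.35 ± 0.57 (SE), adjusted p = 0.963, edgeR) and was highest in the 2 mice with high Pdk4. Ugp2, which makes the sugar donor of glycogen, had 245, 381 and 216 CPM in the ATF4 BKO mice and 660.4 and 283 CPM in the WT mice (-0.75 ± 0.40 (SE), adjusted p = 0.912, edgeR), highest in WT replicate 1 like Slc2a1 and Hk1. These genes were chosen after their values were seen.

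The short noncoding Hk2-202 held 7.25%, 7.31% and 7.51% of Hk2 counts in the ATF4 BKO mice and 3.69% and 4.98% in the WT mice, so the genotypes did not overlap; no test was made. Tpi1, triosephosphate isomerase, had 16.1, 17.7 and 15.8 TPM in the ATF4 BKO mice and 30.6 and 19.5 TPM in the WT mice, far below its neighbours Aldoa and Gapdh, with all its annotated transcripts in the tables and partner genes at no more than 0.295% of its counts. The cause of this low level was not tested.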
